A study of Mus musculus with 9 samples.

Results

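The genes described here are 38 genes of the DNA damage checkpoint and of DNA repair, taken by gene symbol out of the 24736 genes measured in mouse oocytes. All 38 symbols were found, and all 38 passed the filter on low counts that 13890 of the 24736 genes passed. They were ordered by the step they serve: 4 checkpoint kinases, 6 genes of break sensing and chromatin signalling, 8 of homologous recombination, 5 of non-homologous end joining, 8 of base excision and single-strand break repair, 2 of mismatch repair, 3 of the Fanconi anaemia pathway and 2 of nucleotide excision repair. RNA was sequenced from oocytes at the second meiotic metaphase in 9 libraries, each made from 15 oocytes of 1 female ICR mouse, labelled as 4 to 5 weeks old. The control mice (3 libraries) were not stressed. The stress mice (3 libraries) were given 1 unpredictable mild stressor a day for 6 weeks. The third group, called KYZY here (3 libraries), had 6 weeks of the stressors and then 0.1 ml of a decoction of the herbal recipe Kai Yu Zhong Yu into the stomach once a day for 4 weeks. All 9 mice were induced to ovulate with 7.5 IU of PMSG and 7.5 IU of HCG, and oocytes were collected from the oviduct 16 hours after HCG and freed of cumulus cells with hyaluronidase. No stressed mice given a vehicle are named, so the recipe, the gavage and the extra weeks cannot be told apart. The sample records of the KYZY libraries are also numbered apart from those of control and stress, which run on from each other. Whether the KYZY libraries were prepared or sequenced at another time is not known here. Any such difference could not be told apart from the recipe either.

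The fully grown oocyte makes almost no new RNA, so its transcripts are a store laid down during growth and drawn on until the embryo's own genome becomes active. DNA breaks are sensed by the complex of Mre11, Rad50 and Nbn, which activates the kinase Atm, while Atr responds to exposed single strands. Their targets Chek2 and Chek1 halt the cell cycle, and in the ovary Chek2 is known for the removal of oocytes with unrepaired breaks. Repair enzymes stored in the egg also serve the zygote, which has to repair damage carried by the sperm genome before it can transcribe its own genes.

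Total counts ranged from 46324094 to 106990821 per library. Levels are given as CPM, a gene's count scaled to the library's size (with TMM factors, edgeR's scaling between libraries), and as CPM per kilobase of transcript where genes are compared with each other. The TMM factors ran from 0.7994 (stress 3) to 1.2734 (control 2). Overlap between groups was judged on TMM-scaled CPM only. It can change with the scaling and was not examined with scaling by total counts. A read pair appeared to be worth about 4 units, so 12 counts (3 read pairs, or 0.105 to 0.245 CPM) were taken as the floor of detection. The 12 oocyte markers checked were above this floor in all 9 libraries and summed to 19270 to 36800 CPM. The 26 markers of cumulus and granulosa cells, which surround the oocyte, summed to 609 to 893 CPM in control, 689 to 1415 in stress and 752 to 1760 in KYZY libraries, with 2 to 17 of them at 0. Without Serpine2 and Sdc1, which were abundant in every library and were set aside after their values were seen, the other 24 markers summed to 363 CPM in control 3, 64.1 in stress 3, 351 in KYZY 2 and 681 in KYZY 3, against 11.4 to 27.5 CPM in the other 5 libraries. Of the defining markers, Pgr and Areg were at 0 in all 9 libraries. In these pooled oocytes, a change in how many oocytes or other cells carry a transcript and a change in RNA per cell cannot be told apart. Each library came from its own mouse, and no pair of libraries held identical values.

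The stored repair transcripts covered a wide range of levels, and the range between genes was far wider than the range between groups. Per kilobase, 32 of the 38 members lay above the median of the 13126 genes that passed the filter and had a known length. The members' median was 3.46 CPM per kilobase against 1.47 for those genes. Chek1 stood highest at 203 CPM per kilobase, at the 97.8th percentile of those genes, and it alone held 37.2% of the summed CPM of the 38 members. Rnf168 (39.4), Ung (37.2) and Msh6 (34.3 CPM per kilobase) followed. Fanca (0.905), Ercc1 (0.390), Atm (0.251), Prkdc (0.192) and Chek2 (0.191) had the lowest levels per kilobase. The counts of 36 members were above the floor in every library, and Chek2 was at or under it in 2 libraries and Ercc1 in 1.

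**Figure D1:**
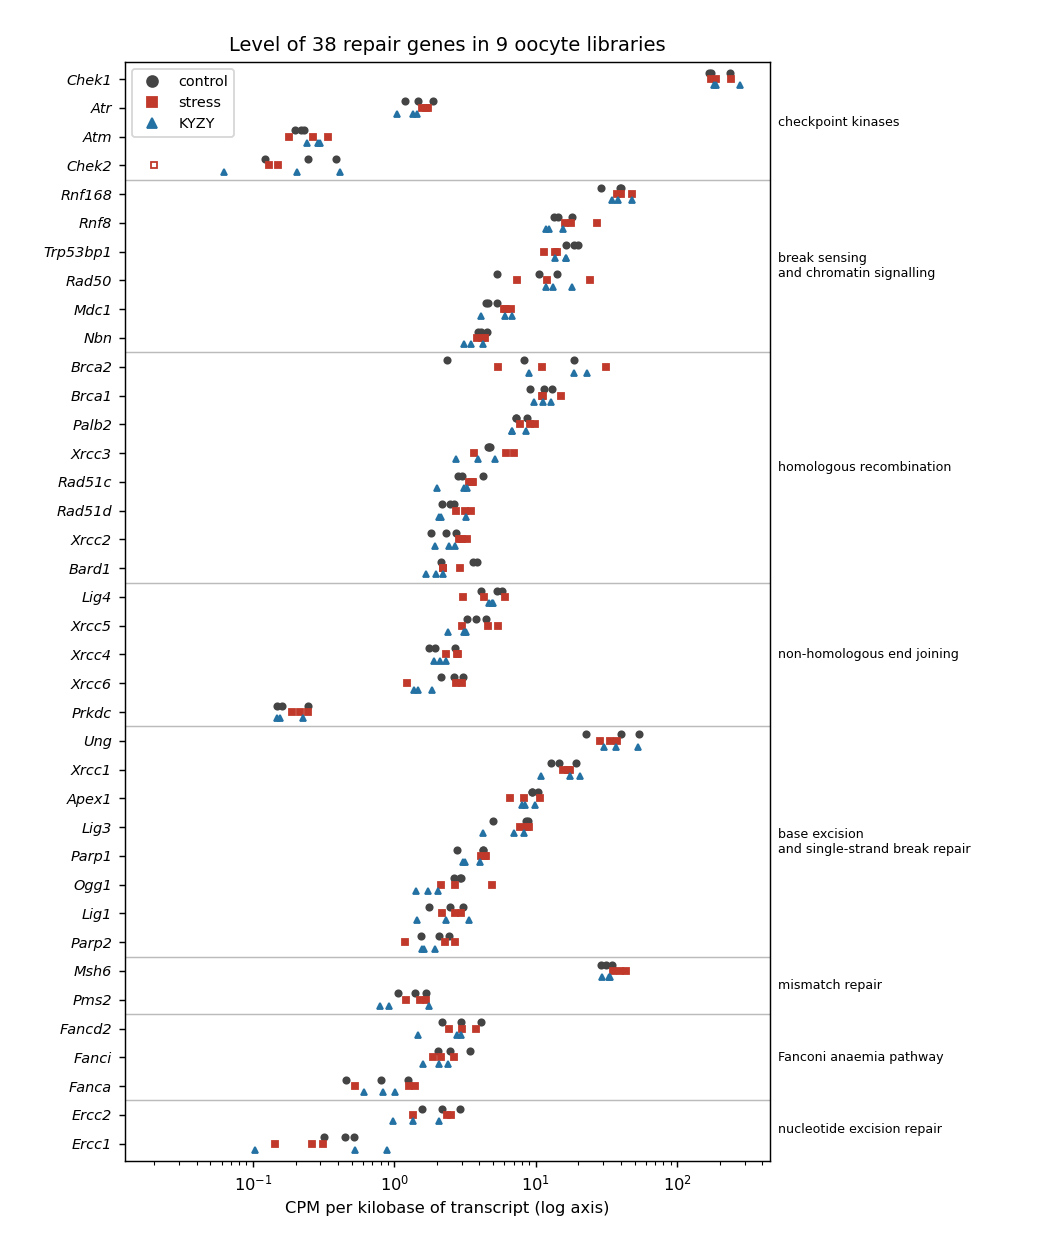
Level of each of the 38 genes in each of the 9 libraries, as CPM per kilobase of transcript on a log axis, grouped by pathway and ordered by mean level within it. Circles are control, squares stress and triangles KYZY libraries, and the open square marks the 0 of Chek2 in stress 1. The points of 1 gene mostly lie close together, Brca2 and Rad50 spread most among the abundant genes, and Chek1 lies far to the right of Chek2.

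Among the checkpoint kinases, the transcripts of the Atr and Chek1 branch were more abundant than those of the Atm and Chek2 branch. Chek1 was at 903, 643 and 655 CPM in control 1, 2 and 3, at 659, 709 and 910 CPM in stress 1, 2 and 3, and at 1061, 715 and 693 CPM in KYZY 1, 2 and 3. The 3 groups overlapped fully. Atr, the kinase upstream of Chek1, had a mean of 1.48 CPM per kilobase and Atm one of 0.251. Chek2 was at 0.56, 0.28 and 0.89 CPM in control, 0, 0.30 and 0.34 in stress, and 0.14, 0.47 and 0.94 in KYZY libraries. The Chek2 values are near the floor and its log2 fold changes had SEs of 1.25 to 1.28, so a difference between groups could be missed. The 2 highest values were in KYZY 3 and control 3, the libraries of highest 24-marker cumulus sum (681 and 363 CPM). Chek2 was lower in KYZY 2, with a sum of 351 CPM, than in control 1, with 12.6 CPM. The part of cumulus cell RNA in the Chek2 level was not tested. The smallest unadjusted p of a checkpoint kinase in any comparison was that of Atr in KYZY against stress (0.134, edgeR), where the groups did not overlap: Atr measured 10.98, 11.8 and 8.45 CPM in KYZY 1, 2 and 3 against 14.1, 12.6 and 13.5 CPM in stress. Atm measured 2.81, 2.36 and 2.92 CPM in the KYZY libraries against 2.25, 2.16 and 1.94 CPM in control, again without overlap (unadjusted p = 0.286).

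The promoters of Chek1 and Chek2 are shown because these kinases mark the upper and lower ends of the range. Each sequence is RefSeq's on GRCm38.p6, 5′ to 3′ on the gene's strand, from 250 bases before to 50 bases after the start used. They lie at chr9:36726609-36726908 (minus strand) for Chek1 and chr5:110839733-110840032 (plus strand) for Chek2. In the GENCODE vM21 gene annotation, Chek1 runs from 36708482 to 36727065, so its whole window lies inside the gene. Chek2 begins at 110839979, inside its window, so the 2 windows are not placed alike. Capitals mark matches on either strand to 4 motifs. These are the E2F-type motif TTTNNCGC, the cell cycle homology element with the letters TTTGAA, the box named for its letters CCAAT, and the GC box, which reads GGGCGG. None of the 4 can contain another.
Chek1: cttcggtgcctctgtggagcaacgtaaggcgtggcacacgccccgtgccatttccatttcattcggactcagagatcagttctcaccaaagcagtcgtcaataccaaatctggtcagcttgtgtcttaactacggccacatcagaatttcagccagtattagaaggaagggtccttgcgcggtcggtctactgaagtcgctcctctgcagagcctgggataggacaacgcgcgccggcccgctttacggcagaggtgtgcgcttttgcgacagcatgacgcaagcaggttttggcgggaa
Chek2: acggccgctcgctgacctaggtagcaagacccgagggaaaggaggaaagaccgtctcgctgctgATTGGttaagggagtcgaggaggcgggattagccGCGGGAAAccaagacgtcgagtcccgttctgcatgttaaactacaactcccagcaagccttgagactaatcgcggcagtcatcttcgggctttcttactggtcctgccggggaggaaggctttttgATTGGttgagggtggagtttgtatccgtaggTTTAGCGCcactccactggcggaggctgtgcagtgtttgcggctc
The Chek1 window held 0 matches to these letters. It ends in gcgggaa, which the window's edge cuts off within a possible E2F-type match on the other strand. The 0 thus holds for this window only and does not show that Chek1 lacks such a site. The Chek2 window held 2 E2F-type matches and 2 CCAAT matches, and the start of the iron-sulfur cochaperone gene Hscb lies 202 bases from that of Chek2 on the other strand. Hscb was at 9.35 CPM per kilobase. Of the 38 members, 32 had an entry among these promoters. The E2F-type motif was in 7 of the 32 (21.9%) and in 8.6% of the 10385 genes that passed the filter and had a promoter entry. In the same 2 sets, CCAAT was in 16 of 32 and 38.9%, the GC box in 24 (75.0%) and 63.0%, and TTTGAA in 2 (6.2%) and 12.1%. A match is a string of letters and does not show that a factor binds there.

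In break sensing and chromatin signalling, Rnf168 and Rnf8, the ubiquitin ligases that mark chromatin around a break, were the most abundant per kilobase, and Nbn was the least (3.96 CPM per kilobase). Trp53bp1, whose product is recruited by that mark and favours end joining over recombination, had the smallest p of the 38 members in stress against control. It was at 192, 180 and 158 CPM in control 1, 2 and 3, at 110, 135 and 131 CPM in stress, and at 156, 156 and 132 CPM in KYZY libraries. All stress and all KYZY libraries lay below all control libraries, while stress and KYZY overlapped. The fold change was -0.49 on the log2 scale (SE 0.194), with an unadjusted p of 0.0285 and an adjusted p of 1.00 in the edgeR quasi-likelihood test. Trp53bp1 (chromosome 2, 121193281 to 121271407) overlaps Tubgcp4 on the opposite strand, and the libraries carry no strand information.

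Mdc1, the adaptor that binds phosphorylated histone H2AX and brings in Rnf8, was at 38.7, 33.7 and 32.8 CPM in control and 49.1, 45.5 and 43.7 CPM in stress libraries. The groups did not overlap, and the log2 fold change was 0.40 (SE 0.212, unadjusted p = 0.0902). In KYZY libraries it was at 49.99, 44.8 and 30.2 CPM, which spans both other groups. Rnf8 was at 96.0, 86.5 and 148 CPM in stress and 84.2, 63.3 and 66.8 CPM in KYZY libraries, with a log2 fold change of -0.62 (SE 0.249) in KYZY against stress and an unadjusted p of 0.0306 (edgeR adjusted p = 0.935). The gap between these groups was narrow, 84.2 against 86.5 CPM, and the log2 fold change was -0.35 without stress 3 and -0.10 without the 4 libraries high in cumulus markers. The control libraries, at 97.5, 77.9 and 72.2 CPM, overlapped both. Nbn was at 7.86 to 11.5 CPM and Rnf168 at 129 to 215 CPM over the 9 libraries, and in neither did any 2 groups stand apart.

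Rad50, the long coiled-coil ATPase that tethers broken ends, and Brca2, a mediator of homologous recombination, varied between libraries more than most genes near their level, and not by group. Brca2 was at 89.2, 25.4 and 199 CPM in control 1, 2 and 3, at 119, 58.1 and 339 CPM in stress, and at 96.3, 247 and 201 CPM in KYZY. Rad50 was at 54.4, 27.2 and 72.8 CPM, at 61.8, 37.8 and 124 CPM, and at 60.9, 92.6 and 68.4 CPM in the same order. Both genes were highest in stress 3, then in KYZY 2, and lowest in control 2, then in stress 2, and the 2 orders over the 9 libraries differ only in that KYZY 3 and control 3 change places. The highest library was 13.4-fold above the lowest for Brca2 and 4.55-fold for Rad50. Within groups the SD of Brca2 was 1.204 on the scale of log2(CPM + 0.5), above that of 98.1% of the 1099 genes within 2-fold of its mean level, whose median SD was 0.321. That of Rad50 was 0.669, above 92.3% of the 1757 genes near its level. The 4 highest libraries of Brca2 and of Rad50 were the 4 libraries of highest cumulus marker sum, although stress 3, the highest for both genes, had a marker sum of only 64.1 CPM and KYZY 3 one of 681 CPM. The part of cumulus cell RNA in this spread was not tested. The log2 fold changes of Brca2 had SEs of 0.845 to 0.850 in the 3 comparisons, and its groups overlapped in each (unadjusted p of 0.379 to 0.929).

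**Figure D2:**
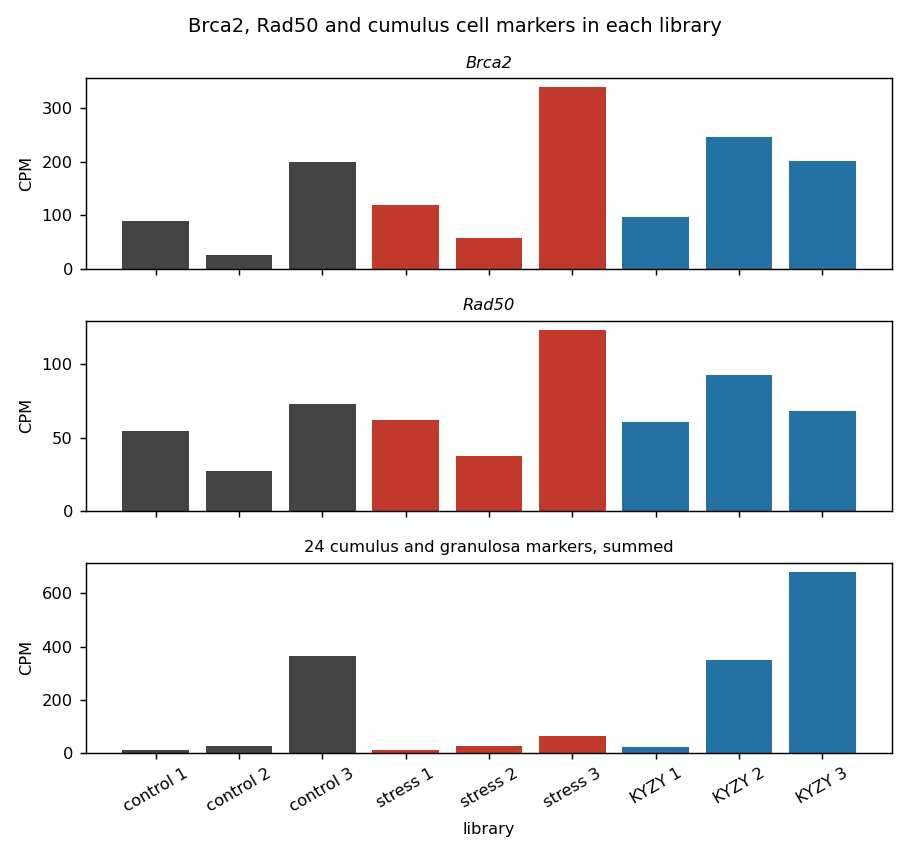
CPM of Brca2 (top), of Rad50 (middle) and the summed CPM of 24 cumulus and granulosa markers (bottom) in each of the 9 libraries, coloured by group. Brca2 and Rad50 follow the same pattern, with stress 3 highest at 339 and 124 CPM, while the marker sum is highest in KYZY 3 at 681 CPM.

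The Brca2 promoter, at chr5:150522371-150522670 on the plus strand of GRCm38.p6 (RefSeq), and the end of its transcript are shown because this gene had the largest spread of the 38. Capitals in the promoter mark the only match to the motifs above, an E2F-type match on the minus strand. Rad50 had no promoter entry.
Brca2: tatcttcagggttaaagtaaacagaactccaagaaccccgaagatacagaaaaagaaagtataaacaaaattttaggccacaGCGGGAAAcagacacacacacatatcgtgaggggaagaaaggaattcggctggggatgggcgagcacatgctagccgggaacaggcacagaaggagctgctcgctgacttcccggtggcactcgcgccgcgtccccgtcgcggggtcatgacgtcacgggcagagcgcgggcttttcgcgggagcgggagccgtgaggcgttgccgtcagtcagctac
The last 150 bases of the longest coding transcript (GENCODE vM21) were searched for TTTTAT and TTTTAAT, the letters of the cytoplasmic polyadenylation element through which oocytes lengthen the poly(A) tails of stored transcripts. Among the 30 members with a poly(A) signal (AATAAA or ATTAAA) in the last 50 bases, only Brca2 and Ogg1 held the element, 6.7%, against 25.4% of the 10375 such genes that passed the filter. The sites are given in the DNA letters of the transcript, with the element in capitals, and for Brca2 also the poly(A) signal, which for Ogg1 is not within the stretch shown. The stretches run from 44 to 15 bases before the end for Brca2 and from 64 to 35 for Ogg1.
Brca2 site: ctatcaTTTTATatacaaAATAAAcatagc
Ogg1 site: gtcttgTTTTATcttccctttattacaaga
The cDNA kit primes on poly(A) tails, so tail length can enter a level measured with it. Tail length was not measured here.

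Of the other recombination genes, Brca1, the ubiquitin ligase that works with Bard1 and Palb2 ahead of Brca2, was at 59.6 to 99.6 CPM over the 9 libraries, and its 3 groups overlapped. Its log2 fold changes were 0.15, -0.14 and 0.01 in stress against control, KYZY against stress and KYZY against control. Bard1, the lowest of the 8 per kilobase (2.53), was at 21.8, 20.2 and 12.1 CPM in control, 12.5, 12.5 and 16.5 CPM in stress, and 12.4, 9.51 and 11.2 CPM in KYZY libraries. All KYZY values lay below all stress values by a narrow margin, and control 3 fell among the KYZY values. Bard1 had the smallest p of the members in KYZY against control, with a log2 fold change of -0.71 (SE 0.254, unadjusted p = 0.0187, edgeR adjusted p = 0.996). Palb2, which links Brca1 to Brca2, was at 25.3 to 37.0 CPM and did not separate the groups.

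Rad51c, Rad51d, Xrcc2 and Xrcc3, which serve strand exchange in recombination, had group means of 7.44 to 13.8 CPM. Xrcc2 was at 5.94, 7.55 and 8.83 CPM in control, 9.29, 9.81 and 10.6 CPM in stress, and 7.94, 6.28 and 8.73 CPM in KYZY libraries. Each stress library lay above each library of both other groups. The log2 fold change of stress over control was 0.41 (SE 0.228, unadjusted p = 0.0990), and 0.26 with scaling by total counts. It was -0.37 (SE 0.228, unadjusted p = 0.132) in KYZY against stress, a comparison that uses the same stress libraries. Rad51d lay higher in all stress than in all control libraries (9.30 to 11.9 against 7.38 to 9.03 CPM), and Rad51c lay lower in all KYZY than in all stress libraries (7.88 to 12.9 against 13.3 to 14.2 CPM). Xrcc3 was at 11.3, 11.1 and 11.5 CPM in control, a very tight group, but at 16.9, 14.9 and 8.92 CPM in stress and 12.5, 6.56 and 9.47 CPM in KYZY (log2 fold change of KYZY against stress -0.51, SE 0.293, unadjusted p = 0.111). That value was -0.30 without stress 1 or without KYZY 2, and -0.33 without the 4 libraries high in cumulus markers.

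Of the 5 end-joining genes, 4 lay above the median per kilobase of the 13126 genes of known length that passed the filter, with Prkdc below it. The Ku subunits Xrcc5 and Xrcc6, which together form the ring that threads onto a broken end, had lower means in KYZY than in the other groups. Xrcc6 was at 8.66, 10.1 and 7.08 CPM in control, 8.99, 9.88 and 4.07 in stress, and 6.11, 4.52 and 4.82 in KYZY libraries. All KYZY libraries lay below all control libraries, and stress 3 lay below all of them. The log2 fold change in KYZY against control was -0.74 (SE 0.330, unadjusted p = 0.0472, edgeR adjusted p = 0.996). Xrcc5 was at 8.38, 11.4 and 9.68 CPM in control, 13.8, 11.7 and 7.71 in stress, and 8.23, 7.91 and 6.10 in KYZY. Here too KYZY lay below control without overlap, but narrowly (8.23 against 8.38 CPM), and stress 3 fell among the KYZY libraries. The log2 fold change in KYZY against stress was -0.58 (SE 0.261, unadjusted p = 0.0503), and -0.37 without stress 1. Prkdc, the kinase that Ku recruits, was the lowest of the 5 per kilobase (0.192) and Lig4, the ligase of this pathway, the highest (4.80). Lig4 was at 15.4 to 30.6 CPM and Xrcc4, its partner, at 2.71 to 4.35 CPM. Xrcc4 lay lower in all KYZY than in all stress libraries (2.92 to 3.57 against 3.59 to 4.35 CPM), by a margin smaller than what 1 read pair is worth.

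In base excision and single-strand break repair, Ung, the glycosylase that removes uracil from DNA, was the most abundant per kilobase. It was at 114, 48.4 and 84.9 CPM in control, 71.1, 60.8 and 80.5 in stress, and 112, 65.0 and 78.6 in KYZY libraries, with full overlap. Ogg1, the glycosylase that removes oxidised guanine, was at 4.50, 4.59 and 4.06 CPM in control 1, 2 and 3, at 4.17, 7.56 and 3.31 CPM in stress, and at 3.17, 2.19 and 2.67 CPM in KYZY. The 3 KYZY libraries were the 3 lowest of the 9. The log2 fold change was -0.91 (SE 0.332) in KYZY against stress, with an unadjusted p of 0.0207, the smallest of the 38 in that comparison, and an edgeR adjusted p of 0.935. Against control it was -0.71 (SE 0.331, unadjusted p = 0.0568). Stress 2 was the highest of the 9, and without it the value against stress was -0.46. Ogg1 (chromosome 6, 113326972 to 113335068) overlaps Camk1 on the opposite strand. Parp1, which senses nicks, lay lower in all KYZY libraries (11.8 to 15.7 CPM) than in all stress libraries (16.0 to 17.2 CPM). Apex1, Parp2, Xrcc1, Lig1 and Lig3, the nuclease, poly(ADP-ribose) polymerase, scaffold and ligases of the later steps, did not separate any pair of groups. Parp2 was the lowest of the 8 per kilobase (1.93).

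Msh6, which recognises mismatched bases, had the smallest spread of the 38 members within groups, an SD of 0.126 on the log2 scale. It was at 123, 147 and 133 CPM in control, 150, 169 and 184 CPM in stress, and 141, 141 and 126 CPM in KYZY libraries. Each stress library lay above each library of both other groups, as for Xrcc2. Its log2 fold change was 0.32 from control to stress (SE 0.187, unadjusted p = 0.118) and -0.30 from stress to KYZY (SE 0.187, unadjusted p = 0.138), and the stress libraries are shared by both. With scaling by total counts the value from control to stress was 0.17. Pms2, the endonuclease subunit of the next step, was at 4.35 to 9.57 CPM and overlapped in all comparisons.

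The Fanconi anaemia genes, which handle crosslinks between the strands, had group means of 3.66 to 16.95 CPM. Fancd2, at 2.85 CPM per kilobase the highest of them, and its partner Fanci are the pair that is ubiquitinated, and Fanca (0.905) belongs to the complex that does this. None of the 3 separated any groups. Ercc2, the helicase of the transcription factor that opens DNA for nucleotide excision, was at 10.4, 7.78 and 5.65 CPM in control, 9.003, 8.44 and 4.84 in stress, and 7.39, 3.48 and 4.88 in KYZY libraries, with a log2 fold change of -0.60 in KYZY against control (SE 0.359, unadjusted p = 0.125), which was -0.36 without control 1, -0.38 without KYZY 2, -0.93 without KYZY 1 and -0.27 without the 4 libraries high in cumulus markers. Ercc1, a subunit of the nuclease that cuts on the damage's upstream side, was at 0.14 to 1.22 CPM, near the floor. Its highest value was in KYZY 3, the library of highest 24-marker cumulus sum, and the part of cumulus cell RNA was not tested. Ercc1 lay lower in all stress than in all control libraries, at 0.20, 0.43 and 0.36 against 0.71, 0.44 and 0.61 CPM, a margin smaller than what 1 read pair is worth.

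**Figure D3:**
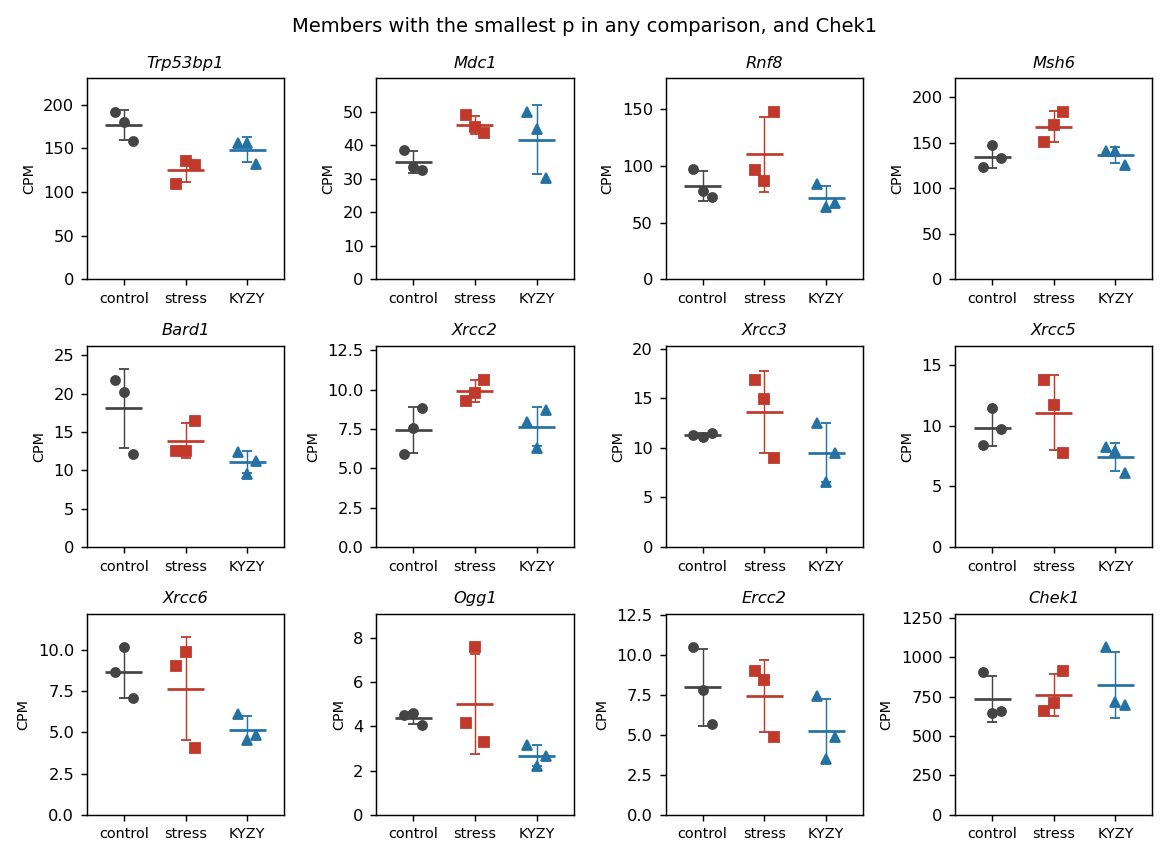
CPM in each library of the 11 members with the 4 smallest p in any comparison, and of Chek1, with circles for control, squares for stress and triangles for KYZY; the long bar is the mean of 3 libraries and the thin bar the SD. Trp53bp1 is lower in stress than in control without overlap, Msh6 and Xrcc2 are highest in the 3 stress libraries, and Ogg1 is lowest in the 3 KYZY libraries.

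No member passed the threshold over all genes in any comparison. With edgeR 0 of 38 members and 0 of 13890 genes (0%) had an adjusted p under 0.05 in each of the 3 comparisons. At an unadjusted p under 0.05 the members were 1 in stress against control (2.69% of all genes), 2 in KYZY against stress (3.98%) and 2 in KYZY against control (2.74%), shares near those of all genes or based on so few genes that nothing can be read from them. DESeq2 also called 0 members in each comparison, while it called 22, 13 and 1 of all genes. In data simulated from these libraries, edgeR found 4%, 4% and 10% of the 50 genes given a 2-fold change in stress against control, KYZY against stress and KYZY against control, and 72%, 52% and 68% of the 50 given a 4-fold change, with 8, 10 and 4 false calls. Most of the simulated 2-fold changes were thus missed at this number of mice. The changed genes were drawn at random from all genes above 1 CPM. The members varied less within groups (median SD 0.296 against 0.357 for all genes on the log2 scale), so these shares are not specific to them. Blocking by replicate number in control and stress led to 1 call, of Mettl7a1, which is no member.

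Counts and medians over the 38 members are given as a description, without a test. In stress against control 12 of 38 had a fitted fold change below 0 (54.0% of all genes) and 26 one above 0, with a median log2 fold change of 0.14 against -0.03 for all genes. With scaling by total counts in place of TMM, that median was -0.005 against -0.16 for all genes, and 20 of 38 were below 0. On TMM-scaled CPM, the only scaling for which overlap was judged, 4 members lay higher in stress without overlap (Mdc1, Xrcc2, Msh6 and Rad51d; 3.51% of all genes) and 2 lower (Trp53bp1 and Ercc1; 4.38% of all genes). In KYZY against stress 29 of 38 had a fold change below 0 (49.2% of all genes), with a median of -0.29 against 0.01. In that comparison 9 members lay lower in KYZY without overlap (5.44% of all genes), namely Ogg1, Rnf8, Xrcc2, Atr, Msh6, Parp1, Rad51c, Bard1 and Xrcc4, and 0 lay higher (3.76% of all genes). Both comparisons use the same 3 stress libraries. By pathway, fold changes below 0 in KYZY against stress were found for 7 of 8 recombination genes (median -0.33), 4 of 5 end-joining genes (-0.33), 6 of 8 base excision genes (-0.20), 5 of 6 break-sensing genes (-0.10), both mismatch repair genes (-0.32), all 3 Fanconi genes (-0.36), 1 of 2 nucleotide excision genes (0.29) and 1 of 4 checkpoint kinases (0.09). Differences between pathways were not tested, and the last 2 medians include Ercc1 and Chek2, which are near the floor. In KYZY against control 25 of 38 were below 0 (50.3% of all genes), with a median of -0.11. Without overlap, 4 lay lower in KYZY (Xrcc6, Ogg1, Xrcc5 and Trp53bp1; 4.79% of all genes) and 1 higher (Atm; 2.43% of all genes).

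These medians moved with single libraries. The SD of the members' median between libraries of a group was 0.107, 0.103 and 0.141 on the log2 scale over the 2 groups of stress against control, KYZY against stress and KYZY against control. Relative to the average of the 9 libraries, the members' median deviation was -0.27 in KYZY 3 and -0.15 in control 3 and lay between -0.03 and 0.18 in the other 7 on the log2 scale. Without KYZY 3 the median in KYZY against stress was -0.13, with 24 of 38 below 0. Without the 4 libraries high in cumulus markers it was -0.14, against -0.09 for all genes, and 24 of 38 were below 0. Without control 3 the median in stress against control was 0.01, against 0.03 for all genes. The cumulus marker sum was 351 and 681 CPM in KYZY 2 and KYZY 3 and 11.4 to 64.1 CPM in the stress libraries, and its part in the list's difference was not tested beyond leaving these libraries out.

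**Figure D4:**
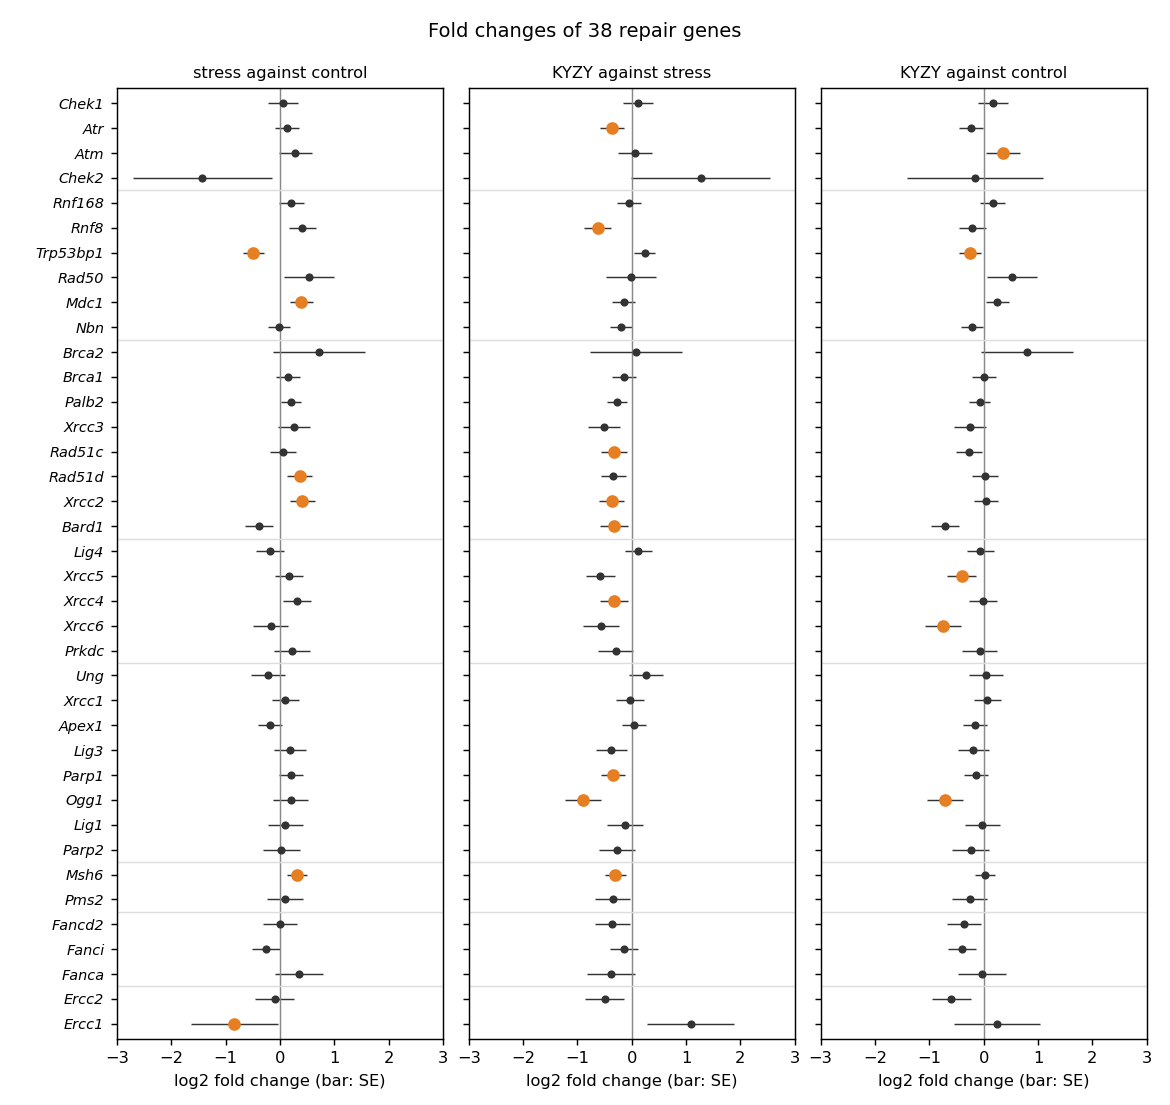
Fitted log2 fold change of each of the 38 genes in the 3 comparisons, with the SE as a bar, grouped by pathway as in the plot of levels. Orange points are genes whose 3 libraries a side do not overlap in TMM-scaled CPM: 6 in stress against control, 9 in KYZY against stress, all of them lower, and 5 in KYZY against control.

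Of 133 other genes of the same pathways, 129 passed the filter, and 0 had an edgeR adjusted p under 0.05 in any comparison (1, 8 and 4 of them had an unadjusted p under 0.05 in stress against control, KYZY against stress and KYZY against control, beside 2.69%, 3.98% and 2.74% of all genes). Their medians were -0.03, -0.07 and -0.14 in the same order. Fold changes were below 0 in 69, 80 and 85 of the 129 (53.5%, 62.0% and 65.9%), beside 54.0%, 49.2% and 50.3% of all genes. Polm, a polymerase of end joining, was at 15.6, 17.6 and 21.4 CPM in control, 11.4, 12.9 and 15.2 in stress, and 20.9, 28.2 and 19.5 in KYZY libraries. It had the smallest p of these genes in KYZY against stress (log2 fold change 0.80, SE 0.22, unadjusted p = 0.00452, adjusted p = 0.935), and a value of -0.47 (SE 0.22) in stress against control. Rad54b, a motor protein of recombination, was at 9.92, 9.32 and 6.19 CPM in control and 14.4, 16.1 and 17.7 CPM in stress (log2 fold change 0.92, SE 0.318, unadjusted p = 0.0154). Hltf, a ligase and translocase at stalled forks, was lower in each KYZY library (5.37 to 5.88 CPM) than in any other (6.68 to 10.7 CPM), with log2 fold changes of -0.72 against stress (SE 0.227, unadjusted p = 0.00991) and -0.60 against control (SE 0.227, unadjusted p = 0.0242). Ddb2, a sensor of ultraviolet damage, was at 25.6 to 34.5 CPM in KYZY and 35.7 to 54.2 CPM in control (log2 fold change -0.59, SE 0.211, unadjusted p = 0.0191).

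Mre11a, the nuclease of the complex with Rad50 and Nbn, was looked up after the members' values were seen. It stood at 1.13 CPM per kilobase, and unlike Rad50 it ranged only from 4.59 to 8.88 CPM.

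Many members start head to head with another gene. In GENCODE vM21, 13 of the 38 had the start of a coding gene on the opposite strand within 1000 bases upstream (up to 200 bases of overlap allowed), against 7.9% of all 21951 coding genes. That share covers every coding gene of the annotation, while all 38 members passed the filter on low counts. The share among genes that passed it was not taken. The levels of such neighbours differed widely. Brca1 and Nbr1, 194 bases apart, stood at 11.7 and 21.7 CPM per kilobase, and Parp2 and Ccnb1ip1, 109 bases apart, at 1.93 and 2.35. Prkdc stood at 0.192 CPM per kilobase while the replication helicase gene Mcm4, 466 bases away, stood at 80.8. Xrcc1 stood at 16.2 and its neighbour Pinlyp at 1.76. In the same annotation, 20 members overlap a gene on the opposite strand and 9 a gene on their own strand, which the unstranded counts cannot separate.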

How the data were processed

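The deposited values are expected counts, whole-number estimates per gene symbol in 1 table per library, not normalized; the unit was read from the values, since the files name none. Per the submitters' processing notes, the authors used bcl2fastq 2.20, Trim Galore, HISAT2, StringTie and DESeq2 with builds GRCm38 and mm10; roles and settings are not given in the sources used here. Values of 4 were over-represented (401 genes in control 1, against 53 with a value of 3), so counting noise is larger than totals of 46324094 to 106990821 imply. Floors cover counting error only, since PCR copies could not be told from separate molecules.

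Counts were fitted in R 4.3.3 with edgeR 4.0.16: filterByExpr (minimum count 10, minimum total 15; 13890 genes kept), TMM scaling, and a robust quasi-likelihood model with 1 mean per group over all 9 libraries. Tests were 2-sided, with Benjamini-Hochberg adjustment over the 13890 genes and a threshold of 0.05. The SE is the fold change divided by the root of F. The test was tested on simulated data. Alternatives used DESeq2 1.42.0, other filters, scaling and samples. Lengths are those of the longest coding transcript in GENCODE vM21 (GRCm38), known for 82.83% of symbols. Same-numbered control and stress libraries deviated together (correlations of 0.312, 0.185 and 0.346 across genes). Some libraries of different numbers did so too (control 2 at 0.233 with stress 1 and 0.322 with KYZY 1), while others did not (control 3 with stress 1, -0.407). KYZY 1 followed its number (0.506 with control 1, 0.402 with stress 1), and so did KYZY 3 (0.559 with control 3, 0.171 with stress 3). KYZY 2 did not follow its number (-0.144 with control 2, -0.146 with stress 2). Whether the numbers pair the libraries is thus not settled. The main fit had no block, and a block by number was run as an alternative.

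The members and gene lists were chosen with earlier results of these data known. Named with tests were the 4 members and the 2 other pathway genes of smallest p in each comparison; the highest and lowest member per kilobase of each pathway were named by level. Tests of Atr, Atm and Brca2, and of Xrcc2 and Msh6 in KYZY against stress, fall outside this rule and were added after their values were seen.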

Additional observations from a re-analysis of the deposited data

How the results depend on the processing

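The count of members past the threshold was 0 under every alternative run, and the smallest adjusted p of a member over all of them was 0.144, 0.578 and 0.360 in stress against control, KYZY against stress and KYZY against control. The 12 fold changes of named members kept their sign in all of their 17 or 18 alternatives each. They were picked for small p in the same data, and the alternatives share most of their libraries, so a kept sign says little. Rnf8 in KYZY against stress had the widest relative range, -0.76 to -0.10, and Trp53bp1 in stress against control ranged from -0.62 to -0.41.

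Over all genes, calls in stress against control, KYZY against stress and KYZY against control were 22, 13 and 1 with DESeq2, and 148, 115 and 119 without the 4 libraries high in cumulus markers, a fit with KYZY 1 alone in its group, assumed to vary like the others, and 2 residual degrees of freedom. A fit of only the 2 groups called 1 gene, Prr18, in KYZY against stress. The replicate block over all 9 libraries called 0, and 1 in a fit of only control and stress, added after seeing the data; it changed no other call. Leaving out single libraries gave 0 to 2, 0 to 1 and 0 to 3 genes; every count above 0 among these (2, 1 and 3) came from leaving out control 3.

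The members' median was 0.01 to 0.22, -0.30 to -0.13 and -0.19 to -0.06 when single libraries were left out, and -0.14 in KYZY against stress without the 4 libraries. Scaling by total counts moved the median of all genes to -0.16 in stress against control and -0.15 in KYZY against control, and the members' median to -0.005 and -0.25, with 20 and 31 of 38 below 0; relative to all genes it was 0.16 and -0.11, close to 0.18 and -0.10 with TMM. Chek2 and Ercc1 were near the floor, and their log2 fold changes in stress against control had SEs of 1.28 and 0.80.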
